A study of Mus musculus with 6 samples.

Results

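The amino acid transporters considered here are 32 genes of the solute carrier (SLC) families 1, 6, 7, 15, 16, 36, 38 and 43. They are listed as carriers of amino acids across the plasma membrane or the lysosomal membrane. The list also holds Slc43a3, known for purine nucleobases, and less well characterised members such as Slc38a10. The 32 genes were chosen by gene symbol from the 54532 genes of the deposited table, and each of the 32 symbols matched 1 row. Slc7a11 and Slc3a2, the subunits of the cystine importer, were left out of the set by the rule and are used below only as a point of reference. RNA with poly(A) tails was sequenced from granulosa cells of the mouse ovary, which support the growing oocyte in the follicle, kept in culture and labelled as wild type. One group of 3 libraries came from cells without treatment, and the other 3 libraries came from cells exposed for 24 h to cyclophosphamide, an alkylating chemotherapy drug used here as a culture model of premature ovarian failure. The labels call the cells a cell line without a name and give neither dose nor age nor sex nor strain, nor do they say whether the replicates were separate cultures. The treatment label of the 3 cyclophosphamide libraries names an intraperitoneal injection, whereas the protocol states that the drug was given to adherent cells in culture. All values below are per gene over the whole culture, so fewer cells of a kind and less RNA per cell cannot be told apart. The p-values measure only the spread between these libraries, which may be technical.

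Amino acids cross the plasma membrane by uniport, by exchange, or with the uptake of sodium or chloride ions. The sodium-coupled carriers load the cell with small neutral amino acids such as alanine, serine, glycine and glutamine, and exchangers then trade these for leucine and other large neutral amino acids. The lysosomal carriers release amino acids from degraded protein and take part in the sensing of amino acids by the growth kinase complex mTORC1. When amino acids run short or the endoplasmic reticulum is stressed, the transcription factor ATF4 is translated and raises the expression of many of these genes.

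Depth ranged from 16458385 to 17607586 reads per library, and 20940 to 21920 genes were detected in each. Untreated libraries correlated with each other at 0.989 to 0.991 on the log2 scale and treated ones at 0.987 to 0.991, against 0.899 to 0.910 for pairs from different groups. On the second principal component (4.68% of the variance) cyclophosphamide replicate 1 lay at -28.0, against 20.3 and 6.72 for replicates 2 and 3. Of 12 granulosa markers Inha (1984 and 905 FPKM in untreated and cyclophosphamide libraries) and Foxl2 (32.5 and 23.9 FPKM) were well expressed, whereas Cyp19a1 held 3 and 1 reads and Amh 16 and 22 reads. The summed level of these 12 markers lay between 7341 and 7470 CPM (reads scaled to library size) without the drug and between 2278 and 2685 CPM with it. Inhba (185969 to 29766 reads) and Inha (148488 to 68647) held most of these reads. Nr5a1 (9177 to 11673) was called higher and Wt1 (507 to 517) was not called. The other 8 tested markers were called lower, as were 35.8% of all genes. Sums over 11 macrophage markers moved from between 14.8 and 15.3 to between 34.9 and 40.0 CPM, over 7 endothelial markers from between 3.40 and 4.37 to between 6.89 and 9.57 CPM, and over 11 oocyte markers from between 1.42 and 1.94 to between 6.29 and 8.91 CPM. Those over 8 theca and stroma markers moved from between 257 and 307 to between 190 and 192 CPM and those over 7 surface epithelium markers from between 178 and 202 to between 86.1 and 119 CPM. Within these lists a few genes held most of the reads. Esam went from 38 to 267 reads and Pecam1 from 20 to 37, while Tek (88 to 46) and Cdh5 (38 to 30) went down. The endothelial genes Kdr (18 to 20) and Vwf (3 to 2) changed little. Of the macrophage genes Csf1r (310 to 1271 reads), Cd14 (112 to 301) and Cd68 (100 to 222) were called higher, Lyz2 (188 to 101) was called lower, and the other 7 had fewer reads with the drug. Of the oocyte genes Gdf9 (41 to 253 reads) and Ooep (34 to 78) were called higher. The other oocyte genes had few reads, and each that had any had more with the drug, such as Padi6 (2 to 19) and Bmp15 (1 to 11). In the theca and stroma list Ptch1 (2988 to 5912) went against Col1a1 (4690 to 1204) and Col3a1 (6232 to 1843). Among the defining markers Cldn5 (endothelium) and Figla (oocyte) were at 0 reads, and over each group the macrophage genes C1qa, C1qb and C1qc had 10 against 2, 8 against 1 and 16 against 4 reads without and with the drug. The part of these other cell types in the changes of the transporters was not tested.

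Levels are given as FPKM (reads scaled to gene length and library size). The gene length equalled that of all annotated exons merged in the genes checked (Slc6a9, Slc7a7, Slc15a4 and Slc7a10). It can exceed the length of the transcripts present, so levels, ranks, shares, sums and ratios between genes depend on the annotation. Of the 32 transporter genes, 28 had enough reads to be tested, with at least 10 reads in at least 3 libraries. After cyclophosphamide 13 rose and 9 fell (limma on log2(FPKM + 0.1), Benjamini-Hochberg adjusted p under 0.05), which is 78.6% of the 28 against 68.9% of all 14885 genes tested. For a call in 1 direction the background was 33.1% for higher and 35.8% for lower genes. The median log2 fold change was 0.23 over the 28 transporter genes and -0.02 over all genes. The FPKM of the groups did not overlap for 22 of the 28 genes, which were the 22 called, and for 73.1% of all genes. Of the 22 called genes 17 changed by less than 2-fold. The exceptions were Slc1a4, Slc6a9 and Slc7a3, which rose, and Slc6a6 and Slc38a5, which fell. Among all genes 10.0% rose and 16.6% fell by at least 2-fold.

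**Figure D1:**
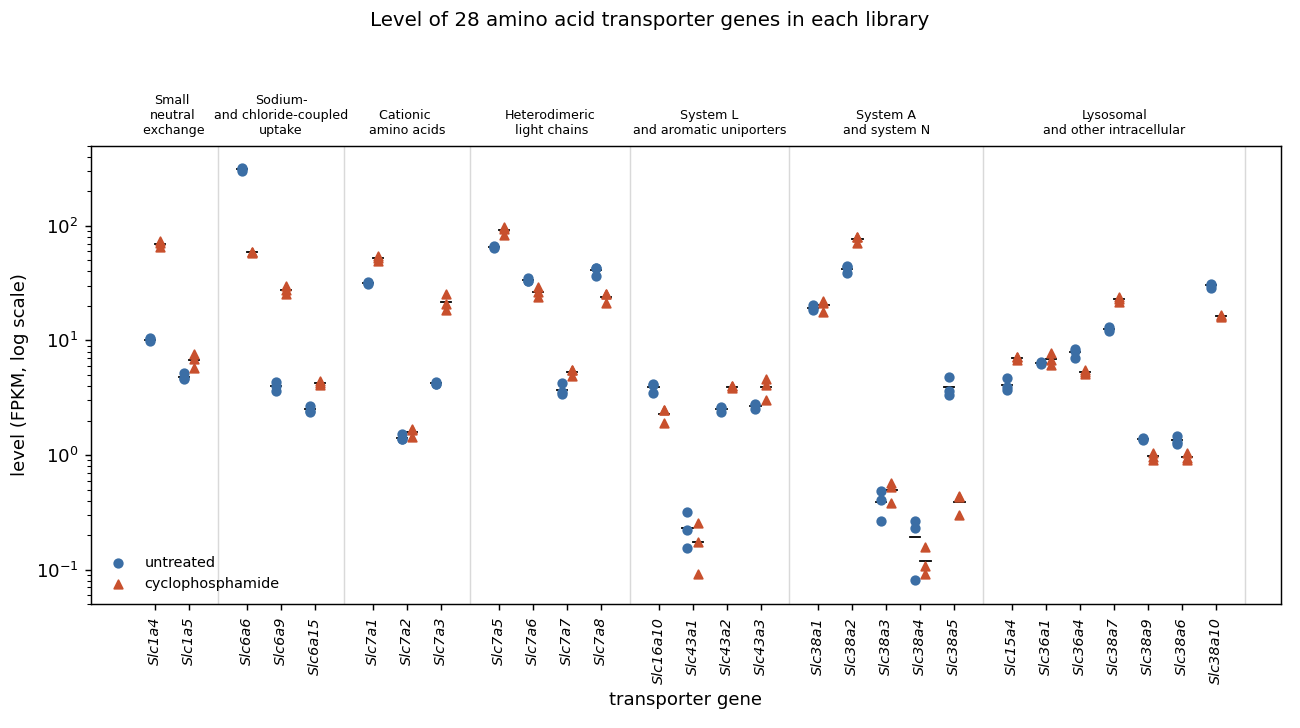
Level in FPKM (log scale) of the 28 tested amino acid transporter genes, grouped by role, with each library as a point (circles untreated, triangles cyclophosphamide) and the group mean of 3 libraries as a bar. Slc6a6 lies at 297 to 321 FPKM in the untreated libraries and at 57.8 to 59.2 FPKM in the cyclophosphamide libraries.

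The taurine transporter gene Slc6a6 was by far the most abundant member in untreated cells and was lower after cyclophosphamide. Slc6a6 (ENSMUSG00000030096, chromosome 6 from 91684053 to 91759066) encodes the sodium- and chloride-coupled carrier that concentrates taurine, a sulfur-containing amino acid that is not built into protein. It stood at 313, 321 and 297 FPKM in the untreated and at 57.8, 59.2 and 58.6 FPKM in the cyclophosphamide libraries. The 3 treated libraries were nearly equal, and the lowest untreated library was well above them. The group means of 310.3 ± 11.8 and 58.5 ± 0.717 FPKM (here and below SD with n = 3) corresponded to a log2 fold change of -2.40 ± 0.07 (SE, limma adjusted p = 3e-07), or 5.29-fold lower. Slc6a6 held 47.6% ± 1.11 of the summed FPKM of all 32 members in untreated and 10.5% ± 0.20 in cyclophosphamide libraries. It moved from the 1st to the 4th place among the members.

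**Figure D2:**
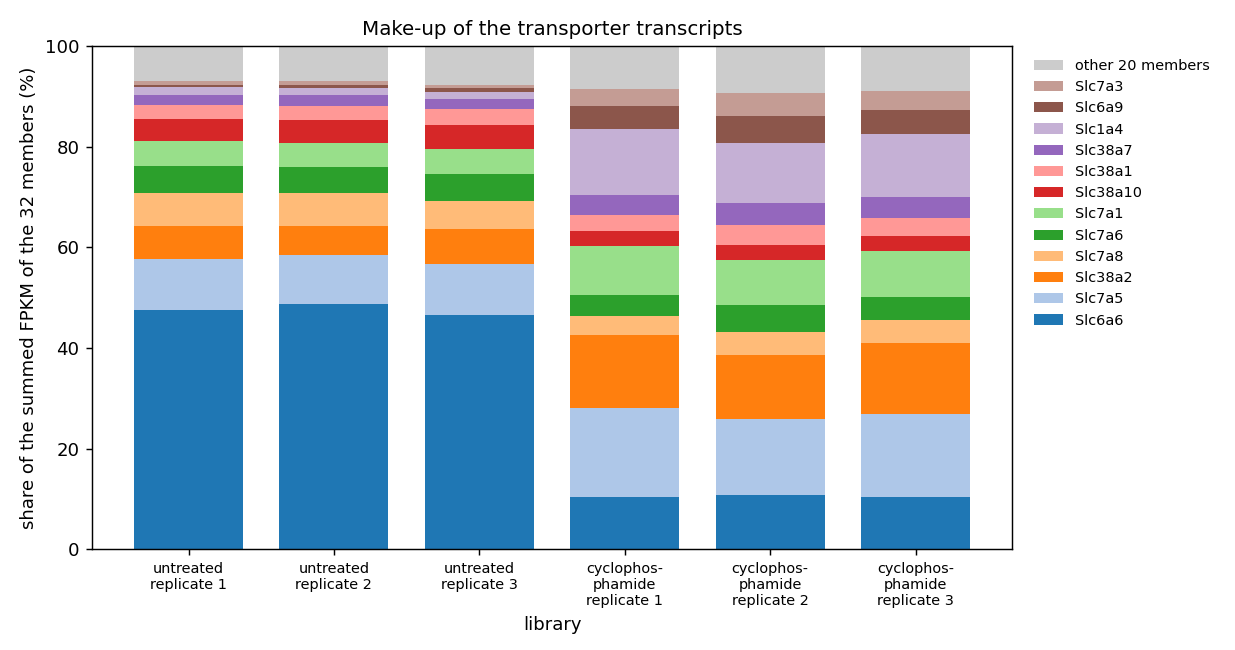
Share of each transporter gene in the summed FPKM of the 32 members (vertical axis, %) in each of the 6 libraries (bars), with the genes outside the 12 shown by name in grey. The share of Slc6a6 is 46.5% to 48.7% without and 10.3% to 10.7% with the drug, and that of Slc1a4 is 1.54% to 1.59% and 11.8% to 13.2%.

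The glycine transporter gene Slc6a9 and the exchanger gene Slc1a4, described next, had the largest rises in the set, and their order was not resolved: the log2 fold changes of 2.77 ± 0.09 and 2.76 ± 0.06 differ by less than their SE, and with a pseudocount of 1 FPKM they were 2.52 and 2.66. Slc6a9 (ENSMUSG00000028542, chromosome 4 from 117834506 to 117875198) encodes GlyT1, which takes up glycine, a building block of glutathione, with sodium and chloride. Its levels were 3.59, 3.97 and 4.33 FPKM without and 25.3, 29.7 and 27.6 FPKM with cyclophosphamide. Every treated library was several fold above every untreated one. The log2 fold change was 2.77 ± 0.09 (SE, limma adjusted p = 5.4e-07), or 6.81-fold. Since Slc6a9 rose while Slc6a6 fell, the ratio of Slc6a6 to Slc6a9 went from between 68.7 and 87.0 in untreated to between 1.99 and 2.29 in cyclophosphamide libraries. Slc6a9 shares 46 exon bases (0.895% of its exons) with B4galt2 on the opposite strand, whose reads went from 2353 to 961. Slc6a15, a sodium-coupled carrier of branched-chain amino acids and proline, rose less, from 2.50 ± 0.16 to 4.25 ± 0.17 FPKM (log2 fold change 0.74 ± 0.10, adjusted p = 0.00034).

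Of the small neutral amino acid exchangers, Slc1a4 rose strongly and Slc1a5 slightly. Slc1a4 (ENSMUSG00000020142, chromosome 11 from 20302180 to 20332713) encodes ASCT1, a sodium-dependent exchanger of alanine, serine, cysteine and threonine. It stood at 10.4, 10.2 and 9.87 FPKM in untreated and at 73.2, 65.2 and 70.7 FPKM in cyclophosphamide libraries. No other member of the set with a level of at least 10 FPKM in untreated cells rose by as much. Its log2 fold change was 2.76 ± 0.06 (SE, limma adjusted p = 1.2e-07), or 6.79-fold, and it moved from the 10th to the 3rd place among the members. Slc1a5, the ASCT2 exchanger that brings in glutamine, was measured at 4.68, 5.18 and 4.62 FPKM and at 5.78, 7.55 and 6.91 FPKM. Those groups lay close to each other but did not overlap (log2 fold change 0.47 ± 0.12, adjusted p = 0.0071). The ratio of Slc1a4 to Slc1a5 therefore went from between 1.97 and 2.23 to between 8.63 and 12.7. The glutamate and aspartate carriers of the same family, Slc1a1, Slc1a2 and Slc1a3, were not tested, with 1, 1 and 14 reads in all untreated and 5, 0 and 22 reads in all cyclophosphamide libraries.

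The promoters were searched for TGATGNAA, the core of the C/EBP-ATF response element bound by ATF4, on both strands. Windows of 300 bases, from 250 before to 50 after each start, came from RefSeq (build GRCm38.p6), where 23 of the 32 members had an entry. Some genes had several windows, and a gene was counted when any of them held the motif. The motif stood in 2 of the 8 members that rose and had an entry (Slc1a4 and Slc7a7), in 0 of the 8 that fell and in 0 of the other 7 (3 not called, 4 not tested), against 4.51% of the 27025 genes with an entry. Slc1a5, Slc6a6, Slc6a15, Slc7a2, Slc7a3, Slc7a5, Slc38a1, Slc38a3 and Slc43a3 had none. In Slc1a4 the match read from the other strand, TTGCATCA, began 4 bases before the start. In Slc7a7 the matches TGATGAAA and TGATGCAA began 141 bases and 1 base before a start at position 54417944, which lies outside the bounds of that gene in the deposited table. The same TGATGCAA began 243 bases before another Slc7a7 start, which lies within those bounds. The remaining windows of Slc7a7 held no match. The stretches from 150 bases before to 10 after the start are shown 5′ to 3′ for these genes and, without a match, for Slc38a2, which rose, and Slc38a5, which fell, with the matches in capitals. Their positions are chr11:20332704-20332863 (minus strand) for Slc1a4, chr14:54417935-54418094 (minus) for Slc7a7, chr15:96699719-96699878 (minus) for Slc38a2 and chrX:8271231-8271390 (plus) for Slc38a5. A match is only a description of these letters.
Slc1a4: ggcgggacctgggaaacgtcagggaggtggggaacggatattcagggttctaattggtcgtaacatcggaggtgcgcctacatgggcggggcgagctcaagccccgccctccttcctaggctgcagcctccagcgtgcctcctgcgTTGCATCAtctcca
Slc7a7: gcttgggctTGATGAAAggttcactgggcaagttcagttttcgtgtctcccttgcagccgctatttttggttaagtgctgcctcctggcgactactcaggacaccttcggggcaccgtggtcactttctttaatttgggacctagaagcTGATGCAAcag
Slc38a2: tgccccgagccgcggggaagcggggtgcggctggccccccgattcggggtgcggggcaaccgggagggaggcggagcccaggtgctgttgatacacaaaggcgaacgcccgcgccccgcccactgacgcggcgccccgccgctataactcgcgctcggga
Slc38a5: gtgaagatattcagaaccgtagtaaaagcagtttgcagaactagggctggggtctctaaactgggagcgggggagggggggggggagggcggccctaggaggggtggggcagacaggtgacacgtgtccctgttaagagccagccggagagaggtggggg

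Among the carriers of the cationic amino acids arginine, lysine and ornithine, the low-level gene Slc7a3 rose most. Slc7a3 (ENSMUSG00000031297, chromosome X from 101079210 to 101086020) encodes CAT3 and stood at 4.37, 4.13 and 4.13 FPKM in untreated and at 18.3, 25.3 and 20.8 FPKM in cyclophosphamide libraries. The treated libraries spread more than the untreated ones, and all were above them. The log2 fold change was 2.31 ± 0.12 (SE, limma adjusted p = 2.4e-06), or 4.97-fold. Slc7a1, the broadly expressed carrier CAT1, was measured at 32.2, 31.1 and 31.6 FPKM and at 54.1, 49.6 and 52.3 FPKM, a rise of 0.72 ± 0.06 on the log2 scale (adjusted p = 2.1e-05). Slc7a1 remained the more abundant, and the ratio of Slc7a3 to Slc7a1 went from between 0.130 and 0.136 to between 0.338 and 0.511. Slc7a2 (1.42 ± 0.09 and 1.60 ± 0.14 FPKM) did not pass the test (log2 fold change 0.16 ± 0.13, adjusted p = 0.33). The 3 genes summed to 37.2 ± 0.758 FPKM in untreated and 75.1 ± 1.30 FPKM in cyclophosphamide libraries.

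The light chains that pair with a heavy chain to form exchangers moved in opposite directions. Slc7a5 encodes LAT1, which brings in leucine and other large neutral amino acids. It stood at 66.4, 63.4 and 64.6 FPKM in untreated and at 98.1, 83.5 and 93.3 FPKM in cyclophosphamide libraries (log2 fold change 0.50 ± 0.08 SE, limma adjusted p = 0.00055). With this rise and the fall of Slc6a6 from 310.3 to 58.5 FPKM, Slc7a5 became the most abundant member of the set. Slc7a8, which encodes LAT2, also a light chain for neutral amino acids, went the other way. It fell from 42.4, 43.0 and 36.7 to 21.2, 25.6 and 25.6 FPKM (-0.75 ± 0.10, adjusted p = 0.00023). The ratio of Slc7a5 to Slc7a8 went from between 1.47 and 1.76 to between 3.26 and 4.63.

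The light chains of the exchangers of cationic for neutral amino acids also diverged. Slc7a6 fell from 33.8 ± 1.12 to 26.5 ± 2.77 FPKM (-0.36 ± 0.08, adjusted p = 0.0052), while the less abundant Slc7a7 rose from 3.73 ± 0.45 to 5.30 ± 0.37 FPKM (0.50 ± 0.11, adjusted p = 0.0049). Slc7a7 shares 232 exon bases, 7.0% of its exons, with Oxa1l on the opposite strand, whose FPKM went from 15.8 to 22.8, a ratio of 1.44 beside 1.42 for Slc7a7. No source used here gives the strand setting of the counting, and the part of Oxa1l reads in the rise of Slc7a7 was not tested. Slc7a10, the light chain of an exchanger of small neutral amino acids, had 0 reads in the 6 libraries, which allows up to 3 reads or 0.0793 to 0.0870 FPKM in a library by counting error alone. It shares 377 exon bases, 17.9% of its exons, with Lrp3 on the opposite strand, which had 1530 reads in untreated and 1732 in cyclophosphamide libraries. The 5 light chains summed to 143 ± 4.69 FPKM in untreated and 148 ± 3.79 FPKM in cyclophosphamide libraries, a ratio of 1.03, or 0.953 under upper-quartile scaling. Slc3a2, their common heavy chain, rose from 75.3 ± 5.51 to 564 ± 12.9 FPKM. Its ratio to the 5 summed light chains went from 0.527 ± 0.042 to 3.82 ± 0.114, and with Slc7a11 added to the light chains from 0.522 ± 0.042 to 2.85 ± 0.135.

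**Figure D3:**
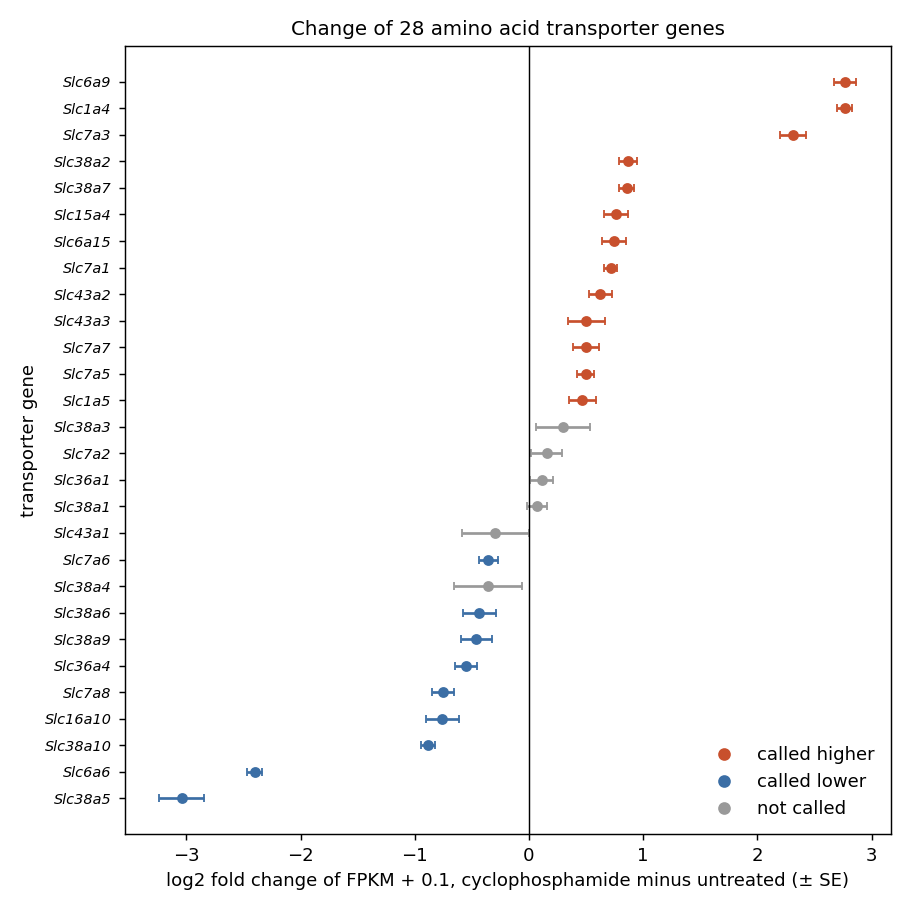
Log2 fold change of FPKM + 0.1 (horizontal axis, cyclophosphamide minus untreated, 3 libraries each) for the 28 tested transporter genes, with bars for ± SE and colours for the call. The values run from -3.04 for Slc38a5 to 2.77 for Slc6a9, with 13 genes called higher and 9 called lower.

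The 4 uniporter genes were expressed at a low level, and the 3 that were called changed by less than 2-fold. Slc16a10, the aromatic amino acid carrier TAT1, fell from 3.48, 4.11 and 4.17 to 2.49, 1.90 and 2.46 FPKM (log2 fold change -0.76 ± 0.14 SE, limma adjusted p = 0.0017). It has the longest span of the members that fell (109 kb, with a median of 59.7 kb for these 9 and 30.5 kb for the 13 that rose), and the part of gene span in these changes was not tested. Slc43a2, the LAT4 uniporter of branched-chain amino acids, methionine and phenylalanine, rose from 2.52 ± 0.14 to 3.94 ± 0.07 FPKM (0.63 ± 0.10, adjusted p = 0.00077). Slc43a3, which belongs to the same family but is known for the transport of purine nucleobases, stood at 2.71, 2.52 and 2.80 FPKM and at 2.99, 4.56 and 4.10 FPKM. The cyclophosphamide libraries differed widely here, with replicate 1 close to the untreated range. Its call (0.50 ± 0.16, adjusted p = 0.023) was lost without untreated replicate 1 (adjusted p = 0.052) or 2 (0.071), without cyclophosphamide replicate 2 (0.070) or 3 (0.075), without a filter on low genes (0.052) and under upper-quartile scaling (0.071). Slc43a1, the LAT3 uniporter, had 67 reads over the untreated and 51 over the treated libraries, too few to detect a difference of this size (-0.29 ± 0.29, adjusted p = 0.39).

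Of the SLC38 carriers at the plasma membrane, Slc38a2 rose and Slc38a5 fell. Slc38a2 (ENSMUSG00000022462, chromosome 15 from 96687392 to 96699730) encodes SNAT2, the adaptive system A carrier that loads cells with alanine, serine, glutamine and other small neutral amino acids. It went from 43.3, 39.1 and 44.1 to 80.5, 70.3 and 80.2 FPKM, with a wide gap between the groups (log2 fold change 0.87 ± 0.08 SE, limma adjusted p = 3.8e-05). In the untreated cells its range overlapped that of Slc7a8 (42.2 ± 2.71 and 40.7 ± 3.45 FPKM), and after cyclophosphamide it stood above it (77.0 ± 5.80 and 24.1 ± 2.56 FPKM). Slc38a1, the other well expressed system A gene, stood at 19.3, 18.4 and 20.3 FPKM and at 17.9, 22.1 and 21.1 FPKM. Those ranges overlapped, with a log2 fold change of 0.07 ± 0.09 (adjusted p = 0.50), whose sign was negative under upper-quartile scaling (-0.04). The ratio of Slc38a2 to Slc38a1 went from between 2.13 and 2.25 to between 3.19 and 4.51.

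Slc38a5 had the largest fall in the set with the pseudocount of 0.1 FPKM. Slc38a5 (ENSMUSG00000031170, chromosome X from 8271133 to 8280179) encodes SNAT5, a system N carrier of glutamine, asparagine, histidine, serine and glycine. It was measured at 3.36, 3.66 and 4.83 FPKM without and at 0.434, 0.299 and 0.439 FPKM with cyclophosphamide, from 449 reads in untreated and 45 in cyclophosphamide libraries. Every treated library was far below every untreated one. The log2 fold change was -3.04 ± 0.20 (SE, limma adjusted p = 6.6e-06), and it was -1.82 with a pseudocount of 1 FPKM, which weighs more on a gene this low. With pseudocounts of 0.5 and 1 FPKM the largest fall was that of Slc6a6 (-2.40 and -2.39, against -2.31 and -1.82 for Slc38a5). The group means differed by 10.1-fold. Slc38a3, the system N carrier SNAT3, and Slc38a4, the system A carrier SNAT4, had levels under 0.6 FPKM in every library and did not pass the test (0.30 ± 0.23, adjusted p = 0.29, and -0.36 ± 0.30, adjusted p = 0.31). Without untreated replicate 2, whose level of 0.0807 FPKM was the lowest of its group, Slc38a4 was called lower (-0.67, adjusted p = 0.036).

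Of the 7 lysosomal and other intracellular carriers 2 rose and 4 fell, each by less than 2-fold, beside 33.1% higher and 35.8% lower over all genes. The calls of Slc38a9 and Slc38a6, both lower, were lost under some alternatives. Slc38a7 encodes SNAT7, which exports glutamine and asparagine from lysosomes. It rose from 12.2, 13.1 and 12.6 to 21.6, 24.1 and 23.1 FPKM (log2 fold change 0.86 ± 0.07 SE, limma adjusted p = 1.7e-05). Slc15a4, which carries histidine and small peptides out of endolysosomes, rose from 3.96, 3.72 and 4.68 to 7.19, 6.78 and 7.10 FPKM (0.76 ± 0.10, adjusted p = 0.00032). In both genes the groups were clearly apart. Slc36a1, the proton-coupled lysosomal carrier PAT1, had overlapping groups at 6.32 ± 0.12 and 6.86 ± 0.81 FPKM (0.11 ± 0.10, adjusted p = 0.34).

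The genes of this group that fell included the lysosomal arginine sensor. Slc38a9, through which arginine in the lysosome acts on mTORC1, went from 1.34, 1.37 and 1.41 to 0.902, 0.965 and 1.05 FPKM (log2 fold change -0.46 ± 0.14 SE, limma adjusted p = 0.016). The call was lost without untreated replicate 3 (adjusted p = 0.057) and without a filter on low genes (0.059). Slc36a4, a carrier of proline and tryptophan, fell from 7.88 ± 0.76 to 5.32 ± 0.23 FPKM (-0.55 ± 0.10, adjusted p = 0.0011). Slc38a10, a less well characterised SLC38 member and the most abundant of the 7, fell from 28.7, 31.2 and 30.7 to 16.4, 16.6 and 15.9 FPKM (-0.89 ± 0.06, adjusted p = 8.1e-06). Slc38a6 fell from 1.34 ± 0.12 to 0.963 ± 0.076 FPKM (-0.44 ± 0.14, adjusted p = 0.026). That call was lost under 7 of 15 alternatives, among them the replicate block (adjusted p = 0.060) and leaving out untreated replicate 1 (0.094) or 2 (0.053) or cyclophosphamide replicate 1 (0.056) or 3 (0.068). The 7 genes together summed to 63.9 ± 1.73 FPKM in untreated and 60.4 ± 2.13 FPKM in cyclophosphamide libraries.

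As a description of the whole set, the 32 members summed to 651 ± 10.5 FPKM in untreated and 558 ± 7.42 FPKM in cyclophosphamide libraries, a ratio of 0.857. Without Slc6a6 the other 31 summed to 341 ± 3.53 and 499.9 ± 7.56 FPKM, a ratio of 1.47, which lay between 1.36 and 1.51 under the other scalings. The sum for small neutral exchange was 5.10 times as high after cyclophosphamide (14.99 ± 0.449 to 76.4 ± 3.25 FPKM), that for cationic transport 2.02 times and that for plasma membrane SLC38 carriers 1.49 times. The sum of the 3 SLC6 genes, which include Slc6a6, fell from 317 ± 11.4 to 90.3 ± 3.09 FPKM, a ratio of 0.285. Ratios of the sums were 1.10 for the 4 uniporter genes and 1.03 for the 5 light chains. For the 7 lysosomal and other intracellular carriers the ratio was 0.946. Of the 32 genes 10 stood at 10 FPKM or more in untreated and 12 in cyclophosphamide cells, and the newcomers were Slc6a9 and Slc7a3. In order of level, the untreated cells had Slc6a6, Slc7a5, Slc38a2, Slc7a8, Slc7a6 and Slc7a1 in front, and the treated cells Slc7a5, Slc38a2, Slc1a4, Slc6a6, Slc7a1 and Slc6a9. In the treated cells the ranges of Slc38a2 and Slc1a4 overlapped (70.3 to 80.5 and 65.2 to 73.2 FPKM). There the range of Slc6a9 (25.3 to 29.7 FPKM) overlapped those of Slc7a6 (23.8 to 29.3) and Slc7a8 (21.2 to 25.6). In the untreated cells the ranges of Slc38a2 and Slc7a8 overlapped, as did those of Slc7a1 (31.1 to 32.2 FPKM) and Slc38a10 (28.7 to 31.2).

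Members that are neighbours in the genome were called differently. On chromosome 15 Slc38a1, Slc38a2 and Slc38a4 lie in a row on the minus strand, 44.5 kb and 295 kb apart with 0 protein-coding genes between them, and Slc38a2 alone of the 3 was called. On chromosome 14 Slc7a7, which rose, and Slc7a8, which fell, lie 304 kb apart with 16 protein-coding genes between them. On chromosome 2 the gap between Slc43a1, which did not pass the test, and Slc43a3 is 73.0 kb. The 32 members lie on 15 chromosomes. All 32 are annotated as protein-coding.

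Of the 9 transporter genes listed as known ATF4 targets 9 rose, with a median log2 fold change of 2.31. They comprise 7 members (Slc1a4, Slc1a5, Slc6a9, Slc7a1, Slc7a3, Slc7a5 and Slc38a2) together with Slc3a2 (2.91 ± 0.08) and Slc7a11 (5.25 ± 0.10). The list was drawn up with results of these data known, so its direction is not independent evidence. Outside it 6 of the 21 tested members rose (Slc6a15, Slc7a7, Slc15a4, Slc38a7, Slc43a2 and Slc43a3), each by less than 2-fold, and 33.1% of all genes rose. No test compared these members with the listed ones.

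Most other genes listed as amino acid carriers of the plasma membrane had too few reads for a test. That role is not established for all of them. Of 22 further genes 5 were tested, 3 fell and 1 rose, beside 35.8% lower and 33.1% higher over all genes. The most abundant was Slc1a6, a glutamate transporter best known from Purkinje neurons, at 31.7 ± 1.37 FPKM in untreated and 17.6 ± 4.94 FPKM in cyclophosphamide cells (log2 fold change -0.88 ± 0.17 SE, limma adjusted p = 0.0019). Its level was far above those of the glutamate carriers Slc1a1, Slc1a2 and Slc1a3. Slc7a4 (-1.31 ± 0.25) and the low-level Slc36a2 (-1.06 ± 0.22) fell as well, and Slc6a17 rose (0.58 ± 0.18), a call lost without untreated replicate 1 (adjusted p = 0.053) or 3 (0.073), without cyclophosphamide replicate 2 (0.053) or 3 (0.069), and without a filter (0.14). Among 7 tested genes of other lysosomal carriers, not all of them known for amino acids, 3 rose and 1 fell. Over all genes 33.1% were higher and 35.8% lower. Those that rose included Spns1 (0.55 ± 0.07) and the cystine exporter Ctns (0.69 ± 0.10). Mfsd12, which is needed for cysteine import into lysosomes and melanosomes, fell (-1.79 ± 0.19). In the list of lysosomal amino acid sensing 12 of 31 rose and 10 fell (median 0.18), a share called of 71.0% that is near the 68.9% of all genes. Fnip1 (1.77 ± 0.10), which acts with folliculin on the Rag GTPases, and Rragd (1.16 ± 0.07), a Rag GTPase, rose, while Castor2 (-1.69 ± 0.10), a relative of the cytosolic arginine sensor, fell.

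**Figure D4:**
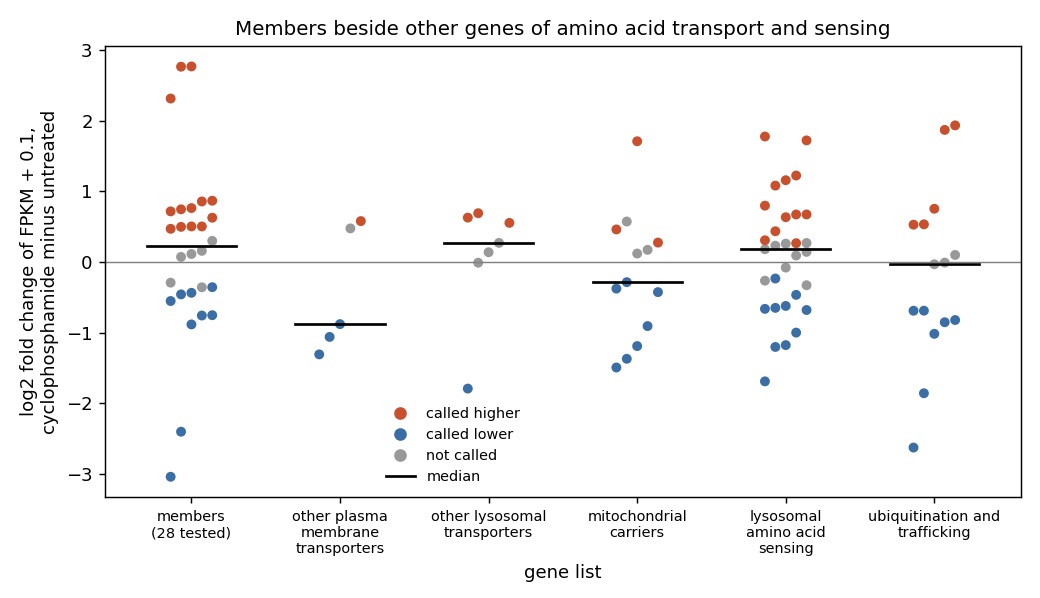
Log2 fold change of FPKM + 0.1 (vertical axis, cyclophosphamide minus untreated, 3 libraries each) for the tested genes of the set and of 5 lists of related genes (horizontal axis), with 1 point per gene coloured by its call and a bar for the median. The medians are 0.23 for the members, -0.88 for other plasma membrane carriers, 0.27 for other lysosomal carriers, -0.29 for mitochondrial carriers, 0.18 for amino acid sensing and -0.03 for ubiquitination and trafficking.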

How the data were processed

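The authors deposited 1 table, named as raw counts, whose values are FPKM by their own pattern: multiplied by the gene length in that table, 100% of the nonzero values were a whole number of reads, to within 0.01. Reads recovered this way were used for filters, CPM and limma-voom. The submitters' processing notes name GRCm39, HISAT2 version 2.0.5 and CASAVA. No source used here gives the counting tool, strand setting, annotation release or scaling between libraries (the implied library size was 0.975 to 1.04 times the summed reads). Gene positions equalled those of GENCODE M21 (GRCm38) for 98.3% of 54409 shared gene IDs and for all 32 members, and are read as GRCm38. All 6 sample columns were used. Groups were taken from the sample titles.

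Genes with at least 10 reads in at least 3 libraries and 15 in all (14885 of 54532, holding 99.9% of the reads) were tested on log2(FPKM + 0.1) with limma (version 3.58.1, R version 4.3.3), a variance trend and Benjamini-Hochberg adjustment over all of them, two-sided, at 0.05. Fold changes are on this scale, where the added constant shrinks those of low genes. The fit was checked on simulated data. Every member is named. From each related list the 3 called genes with the smallest p-values and up to 3 that moved against the rest are named. Other genes of these lists were chosen after their values were seen. Members and lists were chosen with earlier results of these data known. Of 93 symbols in the 5 related lists 1 was matched to an older symbol and 1 was not matched. Promoters were searched in Python version 3.11.15. The 15 alternatives were a replicate block, pseudocounts of 0.5 and 1, no filter, a mean of at least 1 CPM, 3 scalings, limma-voom and leaving out each of the 6 libraries.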

Additional observations from a re-analysis of the deposited data

How the results depend on the processing

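The counts of members called stayed between 12 and 13 higher and between 7 and 9 lower over the 15 alternatives. Leaving out each library in turn gave 12 to 13 higher and 8 to 9 lower members, 4456 to 4873 higher and 4820 to 5268 lower genes over the transcriptome, and 23 to 26 higher and 25 to 27 lower genes in the related lists. Over all 15 alternatives these counts ranged from 4220 to 5299 and from 4820 to 6003 genes over the transcriptome, and from 22 to 29 and from 25 to 30 in the related lists. Upper-quartile scaling gave 4220 higher and 6003 lower genes, and total-read scaling 5247 and 5045. Of 419 member values under these alternatives 402 kept direction and side of the threshold, 15 lost the call (Slc43a3, Slc38a6 and Slc38a9), 1 gained it (Slc38a4) and 1 changed sign without a call (Slc38a1, -0.041 under upper-quartile scaling). With the replicate block 13 members were higher and 8 lower. Deviations of same-numbered libraries correlated at -0.08, 0.005 and -0.03, and those of other pairs at -0.09 to 0.12. With 3 libraries per group these values cannot show whether the numbers pair the samples. Upper-quartile scaling moved the median of all genes by -0.11 on the log2 scale and gave 12 higher and 9 lower members. The cause of these differences was not tested. Depth limits Slc1a1, Slc1a2, Slc1a3 and Slc7a10, which were not tested, and Slc43a1 and Slc38a4, with at most 30 reads in any library.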

Other observations

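Of 13 tested genes for mitochondrial amino acid carriers 7 were called lower and 3 higher (limma, median log2 fold change -0.29 against -0.02 over all genes), beside 35.8% lower and 33.1% higher over all genes. The list itself was not tested. The number of lower genes was 5 to 7 when each library was left out in turn, and the call of Slc25a29 (-0.38 ± 0.13, adjusted p = 0.033) was lost under 9 alternatives, with adjusted p from 0.057 to 0.14. Slc25a22, a mitochondrial glutamate carrier, had 5.43 ± 0.33 FPKM without and 18.0 ± 1.17 FPKM with the drug (SD over 3 libraries), and rose by 1.71 ± 0.08 (SE) on the log2 scale. Slc25a13, an aspartate-glutamate carrier of the malate-aspartate shuttle, fell from 16.5 ± 0.69 to 6.29 ± 0.21 FPKM (-1.37 ± 0.07). Sfxn1, which imports serine into mitochondria, rose (0.46 ± 0.08) while its relative Sfxn3 fell (-0.91 ± 0.09). Slc25a44, a carrier of branched-chain amino acids, rose by 0.27 ± 0.06.

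Of 15 tested genes for the ubiquitination and trafficking of transporters 5 were called higher and 7 lower (median -0.03), where 33.1% of all genes were higher and 35.8% lower. The arrestin-domain gene Arrdc4 rose from 4.47 ± 0.33 to 17.3 ± 1.06 FPKM (1.93 ± 0.09). Txnip, a related alpha-arrestin gene that restrains glucose uptake, fell from 66.01 ± 1.11 to 18.2 ± 1.53 FPKM (-1.86 ± 0.07). Sgk1, a kinase that holds back the ubiquitin ligase NEDD4L, fell from 59.1 ± 2.08 to 9.53 ± 1.42 FPKM (-2.63 ± 0.11).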
